A study of Mus musculus with 22 samples.

Results

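Transcript levels of 10 genes of matrix mineralization and phosphate handling were followed in mouse chondrocytes and cartilage with and without a deletion of Dnmt1, the maintenance DNA methyltransferase. The genes were Alpl, Phospho1, Enpp1, Slc20a1, Slc20a2, Spp1, Ibsp, Dmp1, Mgp and Bglap. Their rows were found by exact match of the gene symbol, a rule that uses no measured value, although the genes were proposed with earlier results of these data known. All 10 were found in every count table, among 34866 genes in the tables of the cultures and 23911 genes in the whole-number table of the cartilage.

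Cartilage and bone matrix calcify where phosphate is released outside the cell and inorganic pyrophosphate, which blocks crystal growth, is removed. Alpl encodes the tissue-nonspecific alkaline phosphatase that cleaves pyrophosphate, Phospho1 a phosphatase of matrix vesicles, and Enpp1 the ectoenzyme that makes pyrophosphate from nucleotides, while Slc20a1 and Slc20a2 encode sodium-dependent phosphate carriers. Spp1 (osteopontin), Ibsp (bone sialoprotein) and Dmp1 belong to the acidic SIBLING proteins of mineralized matrix, and Mgp (matrix Gla protein, an inhibitor of calcification) and Bglap (osteocalcin) carry vitamin K-dependent Gla residues. In the growth plate, late hypertrophic chondrocytes turn on several of these genes before the matrix calcifies.

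The 22 samples formed 6 groups. Control animals carried a Dnmt1 flox allele, given as Dnmt1 flox in the labels of the cultures and as flox in those of the cartilage. Conditional knockouts (cKO) were Prrx1-Cre;Dnmt1 flox/flox, in which Prrx1 regulatory sequence drives Cre in limb mesenchyme and so in the progenitors of limb cartilage, bone and connective tissue. Primary chondrocytes from knee articular cartilage of mice at postnatal days 3 to 5 were sequenced untreated (day 0, 3 control and 3 cKO cultures) or after 3 days of bone morphogenetic protein 2 (BMP2, labelled 100 ng/µl; day 3, 4 control and 4 cKO cultures). Cartilage from mice at postnatal day 5, digested with collagenase, gave 4 control and 4 cKO samples, with both sexes in each group. The labels call the samples biological replicates of the cultures and replicates of the cartilage but do not tie them to animals, so p-values measure the spread between these samples.

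Total counts were 41749327 to 51741478 per culture at day 0, 14434197 to 18918714 per culture at day 3, and 1100198 to 1888896 per cartilage sample in the whole-number table. Levels are given as CPM, counts scaled to library sizes that were adjusted by the TMM method. Dnmt1 itself ranged from 153.1 to 165.6 CPM in the day 0 controls and from 26.8 to 32.8 CPM in the day 0 cKO cultures. The ranges were 63.3 to 81.5 and 10.9 to 35.6 CPM at day 3 and 34.5 to 48.6 and 11.8 to 14.3 CPM in cartilage, so the genotypes did not overlap in any setting. The chondrocyte markers Col2a1, Acan, Sox9, Matn1, Col9a1, Comp, Hapln1 and Snorc summed at day 0 to 127086 to 134483 CPM for the controls and 47490 to 57652 CPM for the cKO cultures, and 8 of 8 were lower in cKO. At day 3 the same sums were 81678 to 100590 and 1114 to 15437 CPM, again with 8 of 8 lower. In cartilage they were 60570 to 91883 CPM in control and 27234 to 57446 CPM in cKO samples in the whole-number counts. There 2 of 8 were called lower, and 3 of 8 in the estimated counts. One library stood apart: day 3 cKO replicate 4 differed from the other cKO cultures across genes, with a chi-square divided by its degrees of freedom between 134.2 and 149.5, against values between 7.89 and 11.6 among those 3. It held the lowest chondrocyte marker sum (1114 CPM, against 10901 to 15437) and the highest osteoclast marker sum (358.8 CPM, against 96.6 to 114.4). The control cartilage libraries were pooled with each other and the cKO libraries likewise, so pool and genotype cannot be told apart. In these bulk samples, fewer cells of a type and less RNA per cell cannot be told apart either.

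Alpl lies on the minus strand of chromosome 4 (chr4:137741733-137796384, GRCm38, GENCODE annotation), Phospho1 on chromosome 11 (chr11:95824499-95832140), Enpp1 on chromosome 10 (chr10:24637914-24712159), Slc20a1 on chromosome 2 (chr2:129198764-129211616) and Slc20a2 on chromosome 8 (chr8:22476788-22569612). Mgp lies on chromosome 6 (chr6:136872435-136875823) and Bglap on chromosome 3 (chr3:88383501-88384464). The SIBLING genes Dmp1 (chr5:104202613-104214102), Ibsp (chr5:104299171-104311469) and Spp1 (chr5:104435118-104441050) share 1 cluster with Dspp and Mepe that spans 270339 bp. All 10 are protein-coding. Some share exonic bases with other genes, so their reads may be split: Phospho1 shares 1818 of its 2029 exonic bases with Zfp652 on the same strand and 1708 with Abi3 on the opposite strand, and Spp1 shares 309 of 1648 with Gm42793 on the same strand. Slc20a1 shares 280 and 452 bases with Gm4430 and 9830144P21Rik, and Slc20a2 95 bases with Smim19, all on the opposite strand. Bglap has the close paralogs Bglap2 and Bglap3 beside it on chromosome 3, and its reads may be divided among them.

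The promoters of Spp1, Ibsp and Alpl are shown because the genotype difference in these 3 genes differed between the culture days, and because Dnmt1 copies methylation at CG dinucleotides. For Ibsp that call was lost in 12 of 14 fits that left out 1 culture. Each promoter runs 5′ to 3′ from 250 bases before to 50 bases after the transcription start in RefSeq (GRCm38.p6), with CG dinucleotides in capitals. Spp1 is chr5:104434861-104435160 on the plus strand, Ibsp chr5:104299037-104299336 on the plus strand and Alpl chr4:137796335-137796634 on the minus strand.
Spp1: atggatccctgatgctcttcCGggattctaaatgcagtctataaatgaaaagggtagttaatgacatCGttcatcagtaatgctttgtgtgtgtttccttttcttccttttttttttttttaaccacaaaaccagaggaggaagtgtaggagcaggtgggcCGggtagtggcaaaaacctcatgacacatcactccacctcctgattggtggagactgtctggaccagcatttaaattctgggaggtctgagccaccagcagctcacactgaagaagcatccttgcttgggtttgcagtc
Ibsp: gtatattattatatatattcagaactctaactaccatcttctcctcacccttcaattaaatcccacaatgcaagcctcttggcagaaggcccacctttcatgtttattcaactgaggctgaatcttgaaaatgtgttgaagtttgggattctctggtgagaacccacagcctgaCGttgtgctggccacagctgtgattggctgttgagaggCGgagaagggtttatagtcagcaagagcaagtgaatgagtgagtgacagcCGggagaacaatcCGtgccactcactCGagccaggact
Alpl: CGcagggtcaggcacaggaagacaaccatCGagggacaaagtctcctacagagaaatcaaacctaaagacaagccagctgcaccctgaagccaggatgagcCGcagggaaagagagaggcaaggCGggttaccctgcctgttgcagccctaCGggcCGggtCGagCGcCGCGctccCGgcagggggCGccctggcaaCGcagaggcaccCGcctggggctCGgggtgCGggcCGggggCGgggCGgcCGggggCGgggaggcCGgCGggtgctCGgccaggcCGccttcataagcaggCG
The Spp1 window holds 3 CG dinucleotides and the Ibsp window 5, below the median of 7 over 27025 mouse promoters of this length, while the Alpl window holds 26. Promoters were found for 8 of the 10 genes. Dmp1 with 7 and Bglap with 4 CG dinucleotides were at or below that median, and Enpp1 with 22, Slc20a1 with 36 and Phospho1 with 42 were above it. The RUNX core letters TGTGGT, searched on both strands, occurred in the Spp1, Enpp1, Slc20a1 and Bglap windows, and in 16.9% of all promoters. Such matches describe the letters of the window only, and DNA methylation was not measured in these libraries.

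Counts of genes past the test are set beside the share of all tested genes that passed it, at an edgeR quasi-likelihood p under 0.05 after Benjamini-Hochberg adjustment. The error after ± on a log2 difference is its SE throughout. At day 0, 9 of the 10 genes could be tested. Slc20a1, Slc20a2, Spp1 and Dmp1 were higher in cKO cultures, and Phospho1 and Mgp were lower. These 4 higher genes stand against 33% of 15530 genes tested, the 2 lower genes against 31.6%, and the 6 together against 64.5%. The groups did not overlap for 6 of the 9, against 70.4% of all genes, so the counts at day 0 were near the background. The median log2 fold change was -0.04 over the 9 genes and 0.01 over all genes.

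At day 3 all 10 were tested. Alpl, Slc20a1, Spp1, Ibsp and Bglap were higher in cKO cultures, and Enpp1 was lower. The 5 higher genes stand against 25.5% of 13924 genes tested, the 1 lower gene against 22.6%, and the 6 together against 48.1%. Bglap had few counts and passed the filter on low counts mainly through the cKO cultures, where it was higher. Its place among the higher genes and in the median below is therefore not support for a difference. The groups did not overlap for 5 of the 10, against 47.9% of all genes. The median log2 fold change was 1.43 over the 10 genes and 0.01 over all genes, with the largest values in Spp1, Alpl and Ibsp.

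In cartilage only Alpl passed, and it was lower in cKO. This is 1 of 7 genes tested in the whole-number counts, against 6.19% of 8793 genes called and 3.04% called lower, and 1 of 8 in the estimated counts of the same libraries, against 6.74% of 10872 called and 3.18% called lower. No member had groups that did not overlap in either table, against 13.5% and 14.6% of all genes, and 0 were called higher, against 3.15% and 3.56%. At an unadjusted p under 0.05 there were 3 of 7 and 4 of 8. The share of all genes at that level was not counted, so these have no background to be read against. DESeq2 called 1 in each table, against 436 of 14639 genes in the whole-number and 715 of 15139 in the estimated counts.

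**Figure D1:**
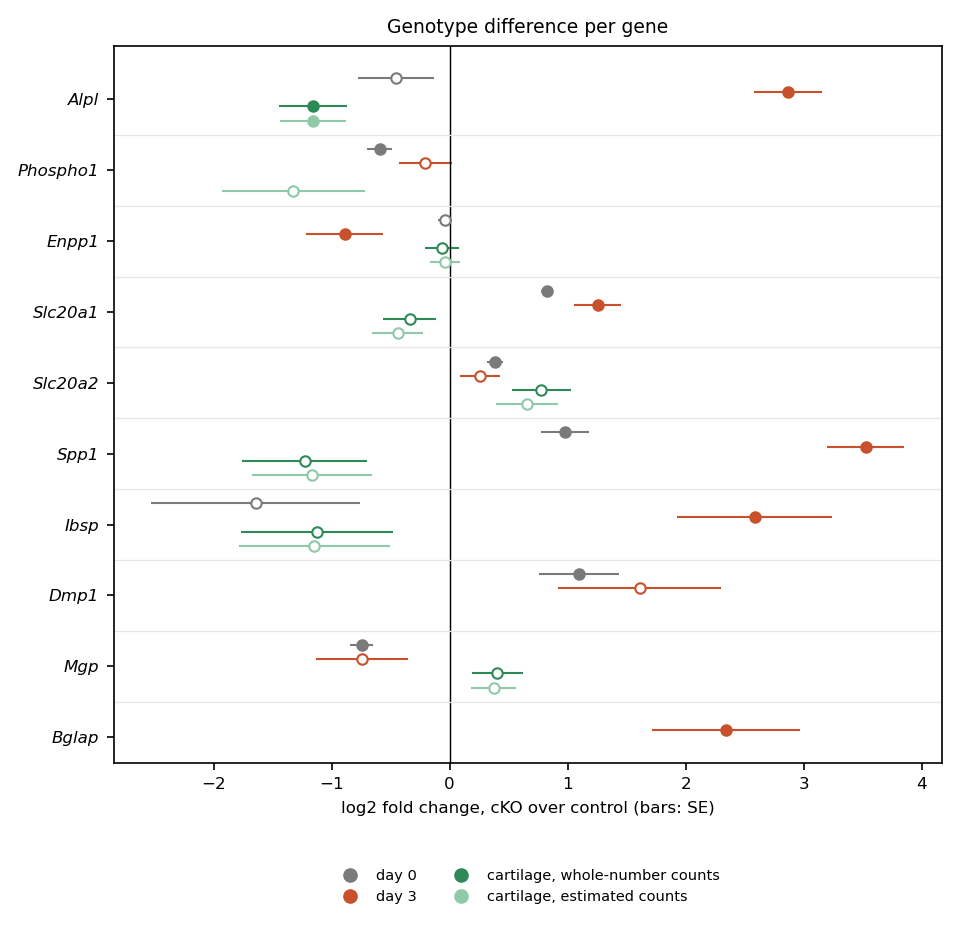
Genotype difference of each gene as log2 fold change, cKO over control (points, with SE bars), at day 0, at day 3 and in cartilage from whole-number and estimated counts. Filled points passed an adjusted p under 0.05, and comparisons in which a gene was not tested have no point. The day 3 points of Alpl (2.87), Spp1 (3.52) and Ibsp (2.58) lie far to the right of their cartilage points.

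Of the 3 genes of phosphate release and pyrophosphate, Alpl showed the largest genotype difference at day 3. At day 0 Alpl stood at 31.9, 37.9 and 41.3 CPM in the control cultures and at 44.9, 21.4 and 15.2 CPM in the cKO cultures. The cKO values enclosed the control values, with replicate 1 above all controls and the other cKO cultures below them. The log2 difference was -0.46 ± 0.32 (SE; edgeR adjusted p = 0.244), and without cKO replicate 1 it was -1.03 (edgeR adjusted p = 5.38e-04). Replicate 1 was picked by its value and did not stand apart across genes. Its chi-square per degree of freedom was 12.1 and 12.6 to the other cKO cultures, which lay at 17.4 from each other. The fit without it is therefore not support for a difference. At day 3 the controls held 49.3, 28.5, 40.5 and 67.5 CPM and the cKO cultures 254.0, 382.8, 272.4 and 428.2 CPM. Every cKO culture lay above every control, and the mean was 46.4 ± 16.4 (SD, n = 4) in control and 334.3 ± 84.5 (SD, n = 4) in cKO, 7.20-fold higher (log2 2.87 ± 0.29 SE; edgeR adjusted p = 1.21e-04).

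From day 0 to day 3 Alpl differed by log2 0.32 ± 0.35 in control cultures (edgeR adjusted p = 0.452) and rose by 3.62 ± 0.39 in cKO cultures (edgeR adjusted p = 6.31e-06). The test of the difference between these changes gave log2 3.30 ± 0.50 (edgeR adjusted p = 0.00104), and it stayed past the threshold without any 1 of the 14 cultures, with 3.01 to 3.87. In cartilage Alpl went the other way. The controls held 98.3, 103.2, 53.2 and 59.2 CPM and the cKO samples 24.4, 71.7, 36.6 and 10.3 CPM. Replicate 2 of the cKO samples lay within the control range and the other 3 below it. The log2 difference was -1.16 ± 0.29 in the whole-number counts (edgeR adjusted p = 0.0272) and -1.16 ± 0.28 in the estimated counts (edgeR adjusted p = 0.0248). That call was lost in 5 of 8 fits that left out 1 sample, in each table, and without sex as a covariate (adjusted p = 0.0896 and 0.075). The direction in culture and that in cartilage were not tested against each other, because the libraries were made and counted differently.

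Phospho1, the phosphatase that frees phosphate from phosphocholine in matrix vesicles, was lower in cKO cultures at day 0 and passed no other test with all samples and the filter on low counts. The day 0 cultures held 27.7, 31.1 and 35.3 CPM in control and 23.7, 18.4 and 20.5 CPM in cKO cultures, with no overlap. Phospho1 was lower in cKO by a log2 difference of -0.59 ± 0.11 (edgeR adjusted p = 9.35e-04). At day 3 the ranges were 21.5 to 39.1 CPM in control and 22.1 to 34.1 CPM in cKO cultures with the cKO range inside the control range, and a log2 difference of -0.20 ± 0.22 (edgeR adjusted p = 0.477). Neither genotype passed for the change from day 0, with log2 -0.06 ± 0.20 in control (edgeR adjusted p = 0.808) and 0.30 ± 0.20 in cKO cultures (edgeR adjusted p = 0.222). In cartilage the whole-number table held 0 to 1 counts of Phospho1 per sample, while the estimated table held 4 to 34. The estimated counts gave 1.31 to 18.1 CPM in control and 2.72 to 10.7 CPM in cKO samples, with a log2 difference of -1.32 ± 0.61 (edgeR adjusted p = 0.219). It was called without the filter on low counts (-1.34; edgeR adjusted p = 0.00604) and without control replicate 4 (-1.71; edgeR adjusted p = 0.0448). The shared exonic bases given above lie beside this gap between the tables, and their part in it was not tested.

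Enpp1, the source of pyrophosphate, was level between the genotypes at day 0, with 40.4 to 40.7 CPM in control and 37.2 to 43.1 CPM in cKO cultures (log2 -0.04 ± 0.06; edgeR adjusted p = 0.56). At day 3 the controls held 66.8, 72.8, 79.7 and 64.1 CPM and the cKO cultures 53.5, 36.6, 47.0 and 14.6 CPM. Every cKO culture lay below every control, and replicate 4, the library that stood apart, was the lowest. The log2 difference was -0.89 ± 0.32 (edgeR adjusted p = 0.0491), and -0.63 without replicate 4 (edgeR adjusted p = 0.00313). The call was lost in 6 of 8 fits that left out 1 culture, with adjusted p values of 0.0561 to 0.102. From day 0 to day 3 Enpp1 rose in control cultures by log2 0.80 ± 0.29 (edgeR adjusted p = 0.031), a call lost in 5 of 14 fits without 1 culture. In cKO cultures the difference was -0.06 ± 0.29 (edgeR adjusted p = 0.87), and 0.21 without replicate 4. The difference between the changes did not pass with all cultures (log2 -0.86 ± 0.41; edgeR adjusted p = 0.169) and passed without replicate 4 (-0.60; edgeR adjusted p = 0.0125). In cartilage Enpp1 was 168.4 to 247.4 CPM in control and 162.8 to 240.0 CPM in cKO samples (log2 -0.06 ± 0.15; edgeR adjusted p = 0.834).

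**Figure D2:**
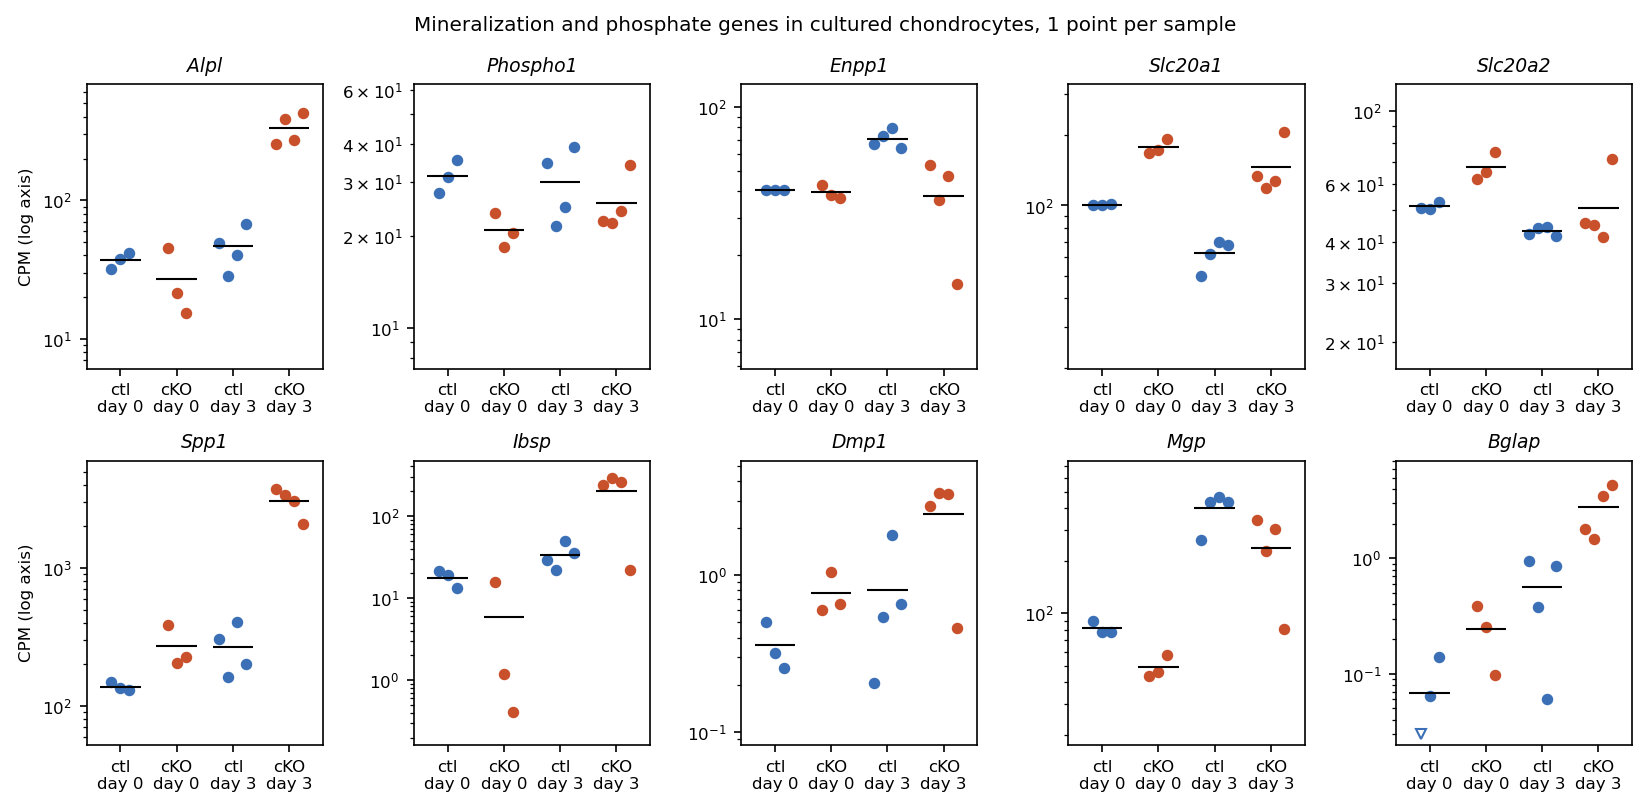
CPM of the 10 genes in each of the 14 cultures on log axes, grouped by genotype and day (ctl, control), with 1 point per sample in the order of the replicate numbers, a black line at the mean and an open triangle for a sample with 0 counts. The 4 cKO cultures at day 3 lie above all controls for Alpl (254.0 to 428.2 CPM) and Spp1 (2075 to 3728 CPM), while Ibsp at day 3 has 1 cKO culture at 21.9 CPM.

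Of the phosphate carriers, Slc20a1 was higher in cKO cultures on both days. The day 0 cultures held 100.5, 100.5 and 101.1 CPM in control and 168.6, 173.1 and 193.8 CPM in cKO cultures, 1.77-fold higher (log2 0.82 ± 0.05 SE; edgeR adjusted p = 9.59e-07). At day 3 it stood at 49.9, 61.6, 70.0 and 67.7 CPM in control and at 133.8, 119.3, 127.3 and 206.6 CPM in cKO cultures, 2.36-fold higher (log2 1.26 ± 0.20 SE; edgeR adjusted p = 0.00114). The groups did not overlap on either day, and replicate 4 was the highest cKO culture at day 3. Slc20a1 fell from day 0 to day 3 in control cultures (log2 -0.69 ± 0.17; edgeR adjusted p = 0.00304). The change in cKO cultures was -0.28 ± 0.16 (edgeR adjusted p = 0.153), and -0.49 without replicate 4 (edgeR adjusted p = 4.65e-04). The difference between the changes did not pass (log2 0.41 ± 0.23; edgeR adjusted p = 0.263).

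In cartilage Slc20a1 stood at 138.1, 163.0, 187.1 and 118.4 CPM in control and at 95.7, 206.4, 91.0 and 94.8 CPM in cKO samples. The cKO samples 1, 3 and 4 lay below every control and replicate 2 above every control. The log2 difference was -0.34 ± 0.22 (edgeR adjusted p = 0.401), and -0.68 without replicate 2 (edgeR adjusted p = 0.0235). That sample was picked by its value, so the fit without it is not support for a difference. Slc20a2, the second carrier, was 50.5 to 53.0 CPM in control and 61.9 to 74.9 CPM in cKO cultures at day 0, with no overlap (log2 0.39 ± 0.07; edgeR adjusted p = 6.67e-04, or 0.0618 with all 14 cultures in 1 fit). At day 3 it was 41.7 to 44.4 and 41.4 to 71.2 CPM (log2 0.26 ± 0.17; edgeR adjusted p = 0.245), and without replicate 4 the difference was 0.03. Slc20a2 passed as lower at day 3 than at day 0 in cKO cultures (log2 -0.41 ± 0.15; edgeR adjusted p = 0.0275), where the days overlapped, and did not in control cultures (-0.26 ± 0.15; edgeR adjusted p = 0.157), where they did not overlap. With each genotype fitted alone this was exchanged, at adjusted p = 0.107 in cKO and 0.00229 in control cultures. The cKO call was lost in 4 of 14 fits without 1 culture, and the control change was called without day 3 cKO replicate 4 (edgeR adjusted p = 0.00321). The difference between the changes did not pass (log2 -0.15 ± 0.21; edgeR adjusted p = 0.676), and did without that culture (-0.36; edgeR adjusted p = 0.0128). In cartilage Slc20a2 was 14.5 to 21.8 CPM in control and 16.1 to 47.9 CPM in cKO samples (log2 0.78 ± 0.25; edgeR adjusted p = 0.0803).

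Among the SIBLING genes Spp1 showed the largest difference at day 3. Its control cultures at day 0 held 148.3, 135.4 and 130.3 CPM and its cKO cultures 385.3, 204.5 and 226.5 CPM, with no overlap (log2 0.98 ± 0.20 SE; edgeR adjusted p = 0.0023). At day 3 the controls held 303.6, 161.0, 403.2 and 201.9 CPM and the cKO cultures 3728, 3354, 3058 and 2075 CPM. The lowest cKO culture, replicate 4, lay above the highest control. The means were 267.4 ± 109 (SD, n = 4) and 3054 ± 708 (SD, n = 4), 11.4-fold higher in cKO (log2 3.52 ± 0.33 SE; edgeR adjusted p = 8.07e-05). Spp1 rose from day 0 to day 3 in control cultures (log2 0.95 ± 0.31; edgeR adjusted p = 0.0185), a call that was lost in 3 of 14 fits without 1 culture, and in cKO cultures (log2 3.49 ± 0.35; edgeR adjusted p = 3.09e-06). The cKO change was larger by log2 2.53 ± 0.44 (edgeR adjusted p = 0.0022), and this held without any 1 culture, at 2.35 to 2.87.

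Ibsp varied widely between replicates. The day 0 cultures held 21.0, 19.0 and 13.1 CPM in control and 15.9, 1.19 and 0.407 CPM in cKO cultures. Replicate 1 of the cKO cultures lay among the controls, and the other 2 lay far below. The log2 difference was -1.64 ± 0.89 (edgeR adjusted p = 0.133), and -4.52 without replicate 1 (edgeR adjusted p = 2.12e-05). That culture was again picked by its value, so the fit without it is not support for a difference. At day 3 the controls held 29.0, 21.7, 48.7 and 35.5 CPM and the cKO cultures 238.9, 290.1, 254.7 and 21.9 CPM. Replicates 1 to 3 lay above every control, and replicate 4, the library that stood apart, lay among them. The log2 difference was 2.58 ± 0.66 (edgeR adjusted p = 0.0117), and 2.95 without replicate 4 (edgeR adjusted p = 6.29e-06).

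Ibsp rose from day 0 to day 3 in cKO cultures by log2 5.13 ± 1.11 (edgeR adjusted p = 0.00134), and by 7.998 without day 0 cKO replicate 1. In control cultures the difference was 0.93 ± 0.92 (edgeR adjusted p = 0.414), although the control cultures at day 3 all lay above those at day 0, and with control cultures fitted alone it was called at the same size (edgeR adjusted p = 0.0124). The difference between the changes was log2 4.20 ± 1.33 (edgeR adjusted p = 0.0466), and this call was lost in 12 of 14 fits that left out 1 culture, with adjusted p values of 0.0575 to 0.107. Its size ran from 3.64 to 7.08 in these 14 fits, the highest without day 0 cKO replicate 1. Dmp1 was near the lower limit of detection in culture. At day 0 it held 23, 15 and 11 counts in control and 25, 46 and 34 in cKO cultures, or 0.254 to 0.503 and 0.601 to 1.06 CPM, higher in cKO (log2 1.09 ± 0.34; edgeR adjusted p = 0.0186). That call was lost in 3 of 6 fits that left out 1 culture, and with all 14 cultures in 1 fit (adjusted p = 0.217). At day 3 it held 3, 10, 30 and 10 counts in control and 49, 68, 63 and 8 in cKO cultures. Replicate 4 again lay among the controls (log2 1.61 ± 0.69; edgeR adjusted p = 0.0854), and without it the difference was 1.94 (edgeR adjusted p = 0.00797). Dmp1 rose from day 0 in cKO cultures (log2 1.68 ± 0.62; edgeR adjusted p = 0.0306), a call lost in 5 of 14 fits without 1 culture, and did not pass in control cultures (1.17 ± 0.69; edgeR adjusted p = 0.17).

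In cartilage Spp1 and Ibsp shared 1 pattern over the samples, which Slc20a1 showed as well. Spp1 stood at 393.3, 723.5, 552.2 and 398.0 CPM in control and at 204.0, 946.3, 49.1 and 94.8 CPM in cKO samples. Ibsp stood at 48.8, 216.7, 84.4 and 62.3 CPM in control and at 20.2, 216.0, 6.24 and 6.89 CPM in cKO samples. For both genes the cKO samples 1, 3 and 4 lay below every control and replicate 2 lay at or near the top of all 8 samples. The log2 differences were -1.23 ± 0.53 for Spp1 (edgeR adjusted p = 0.187) and -1.13 ± 0.64 for Ibsp (edgeR adjusted p = 0.326). Without cKO replicate 2 they were -2.15 (edgeR adjusted p = 2.43e-04) and -3.05 (edgeR adjusted p = 8.19e-04). In that fit 4 of the 7 genes tested were lower in cKO, beside 333 of 9016 over all genes. The sample was again picked by its value, so neither these differences nor that count is support for a lower level in cKO. Dmp1 had 5, 19, 4 and 18 counts in control and 1, 10, 2 and 0 in cKO samples and was not tested.

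**Figure D3:**
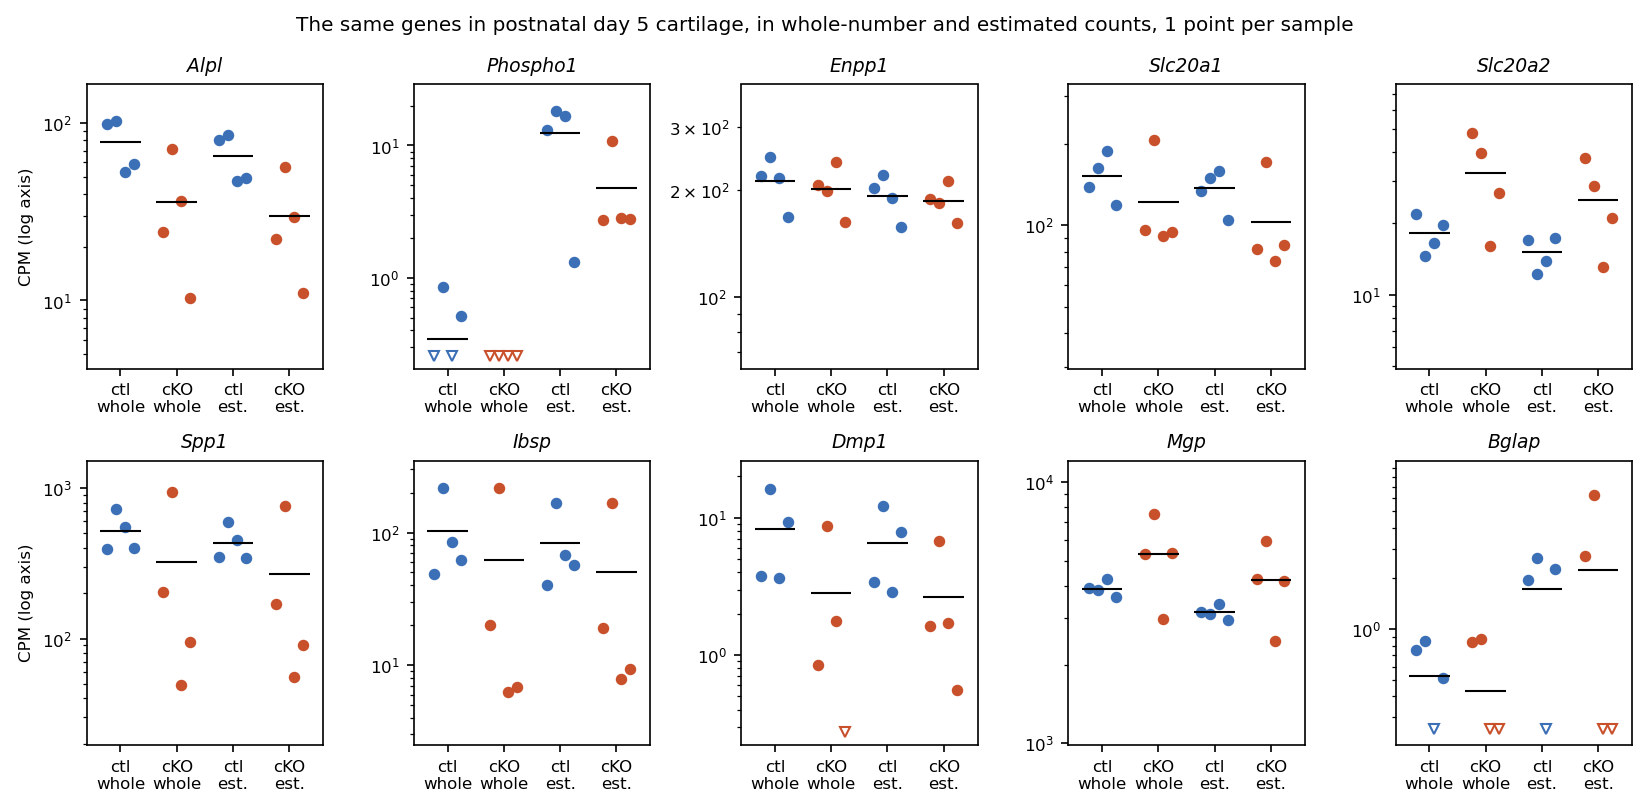
CPM of the 10 genes in each of the 8 cartilage samples on log axes, from the whole-number and the estimated (est.) counts of the same libraries (ctl, control), with 1 point per sample in the order of the replicate numbers, a black line at the mean and an open triangle for 0 counts. For Spp1, Ibsp and Slc20a1 the second cKO point (946.3, 216.0 and 206.4 CPM in the whole-number counts) stands above the other 3.

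Markers of other cells moved beside these results, those of skeletal muscle among them. The skeletal muscle and osteoclast lists hold genes that earlier results of these data had shown to differ, so their calls are not independent support. Over all genes tested, 33% were called higher in cKO at day 0 and 25.5% at day 3. In the whole-number cartilage counts 3.15% were called higher and 3.04% lower. Muscle markers summed at day 3 to 0.725 to 1.62 CPM in control and 107.2 to 1436 CPM in cKO cultures, and 7 of 7 tested were higher, with Actc1 at 0 in all 4 controls, while 4 of 5 were higher at day 0. In cartilage they summed to 11.9 to 15.8 CPM in control and 56.2 to 87.3 CPM in cKO samples, with 2 of 2 tested higher in the whole-number and 1 of 2 in the estimated counts. Macrophage markers at day 3 summed to 7.20 to 10.6 CPM in control and 13.6 to 23.6 CPM in cKO cultures, 4 of 5 higher, with C1qa and C1qb at 0 in all cultures of that day. Of the osteoblast and osteocyte markers, 4 of the 4 tested were higher in cKO cultures at day 3, and the list summed to 3650 to 5041 CPM in control and 6548 to 8690 CPM in cKO cultures. Its members include Bglap2. Osteoclast markers, another source of Spp1, summed to 110.7 to 138.9 CPM in control and 96.6 to 358.8 CPM in cKO cultures, and Calcr was at 0 in all cultures at day 3. In cartilage the osteoblast list summed to 27991 to 56104 CPM in control and 13406 to 33604 CPM in cKO samples, with 28133 in replicate 2, and 0 of 2 markers tested passed (edgeR). In the estimated counts 1 of 3 was lower in cKO. Osteoclast markers were lower in cKO cartilage, 3 of 3 tested, with sums of 126.1 to 458.2 CPM in control and 59.6 to 118.6 CPM in cKO samples. Erythroid markers were lower in 4 of 4. The part of these cells in the levels of Alpl, Spp1 and Ibsp was not tested.

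Of the Gla proteins, Mgp was lower in cKO cultures at day 0 and rose to day 3 in both genotypes. The day 0 cultures held 89.9, 78.0 and 78.1 CPM in control and 43.7, 46.1 and 57.3 CPM in cKO cultures, with no overlap. The log2 difference was -0.74 ± 0.10 (SE; edgeR adjusted p = 1.32e-04, or 0.135 with all 14 cultures in 1 fit). At day 3 it stood at 264.7, 435.4, 467.9 and 435.7 CPM in control and at 340.8, 228.1, 303.3 and 81.1 CPM in cKO cultures. The groups overlapped through control replicate 1, and the log2 difference was -0.74 ± 0.39 (edgeR adjusted p = 0.147). Mgp rose from day 0 to day 3 by log2 2.29 ± 0.38 in control (edgeR adjusted p = 2.15e-04) and by 2.28 ± 0.38 in cKO cultures (edgeR adjusted p = 1.96e-04). The difference between the changes was -0.01 ± 0.50 (SE) and did not pass. In cartilage Mgp was 3613 to 4233 CPM in control and 2995 to 7508 CPM in cKO samples (log2 0.40 ± 0.22; edgeR adjusted p = 0.289).

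Bglap was scarce. At day 0 it had 0, 3 and 6 counts in control and 16, 11 and 5 in cKO cultures and was not tested between the genotypes. At day 3 it had 14, 7, 1 and 13 counts in control and 32, 30, 67 and 76 in cKO cultures, or 0.0601 to 0.960 and 1.48 to 4.38 CPM. The groups did not overlap, and Bglap was higher in cKO (log2 2.34 ± 0.63; edgeR adjusted p = 0.0148), having passed the filter on low counts mainly through the cKO cultures. From day 0 to day 3 it rose in cKO cultures (log2 3.51 ± 0.72; edgeR adjusted p = 9.4e-04). The control cultures passed the same test (log2 2.98 ± 0.92; edgeR adjusted p = 0.0138) on the few counts given above, with overlapping days, and the gene passed the filter of that fit mainly through the cKO cultures. In cartilage it had 0 to 1 counts per sample in the whole-number table. Bglap2 was also higher in cKO cultures at day 3 (log2 2.13 ± 0.40; edgeR adjusted p = 0.00282). It held 0.760 to 3.15 CPM in control and 7.38 to 13.3 CPM in cKO cultures.

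Bglap3, the third gene of the osteocalcin locus, followed another course. At day 0 it held 0.524, 0.697 and 0.809 CPM in control and 10.9 to 13.02 CPM in cKO cultures (log2 4.17 ± 0.15; edgeR adjusted p = 5.12e-08). At day 3 it held 14, 15, 4 and 5 counts in control and 58, 88, 83 and 72 in cKO cultures. It was higher in cKO again (log2 2.78 ± 0.39; edgeR adjusted p = 5.91e-04), having passed the filter on low counts mainly through the cKO cultures. From day 0 to day 3 it fell in cKO cultures (log2 -1.60 ± 0.26; edgeR adjusted p = 1.52e-04). In cartilage the whole-number table gave 0 counts in all 4 controls and 12, 6, 2 and 12 counts in the cKO samples. In the estimated counts, rounded, the controls held 1, 3, 0 and 0 counts and the cKO samples 34, 16, 11 and 31 (edgeR adjusted p = 7.3e-04), and the gene passed the filter through the cKO samples. Bglap was not tested at day 0 or in cartilage. Mepe and Dspp, the neighbours of Spp1, Ibsp and Dmp1 in the cluster on chromosome 5, had 0 to 2 counts in every culture.

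The change from day 0 to day 3 combined time, BMP2, sequencing depth and the deposited table, which cannot be told apart. In control cultures Enpp1, Spp1, Mgp and, on few counts, Bglap were called higher at day 3 and Slc20a1 lower. The 4 higher genes stand against 28.1% of 14909 genes tested, the 1 lower gene against 28.8%, and the 5 together against 56.9%. In cKO cultures Alpl, Spp1, Ibsp, Dmp1, Mgp and Bglap were called higher and Slc20a2 lower, which is 6 against 32.4%, 1 against 29.8% and 7 against 62.2%. Bglap passed the filter of this fit mainly through the day 3 cKO cultures, so its calls add no support to the counts of higher genes. The days did not overlap for 6 of 10 genes in control and 5 of 10 in cKO cultures, against 64% and 62.5% of all genes. The median log2 change was 0.86 in control and 1.98 in cKO cultures, beside 0.00 and 0.02 over all genes. The change was larger in cKO for Alpl, Spp1 and Ibsp, although the Ibsp call was lost in 12 of 14 fits that left out 1 culture. These are 3 of 10, against 9.94% of genes called in that direction and 16.8% called at all. In the other direction 0 of 10 were called, against 6.89%. At an unadjusted p under 0.05 there were 3 as well, a level at which the share of all genes was not counted. DESeq2 called 3, against 3360 of 16997 genes. These tests share their cultures with the genotype comparisons at each day and repeat part of them.

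**Figure D4:**
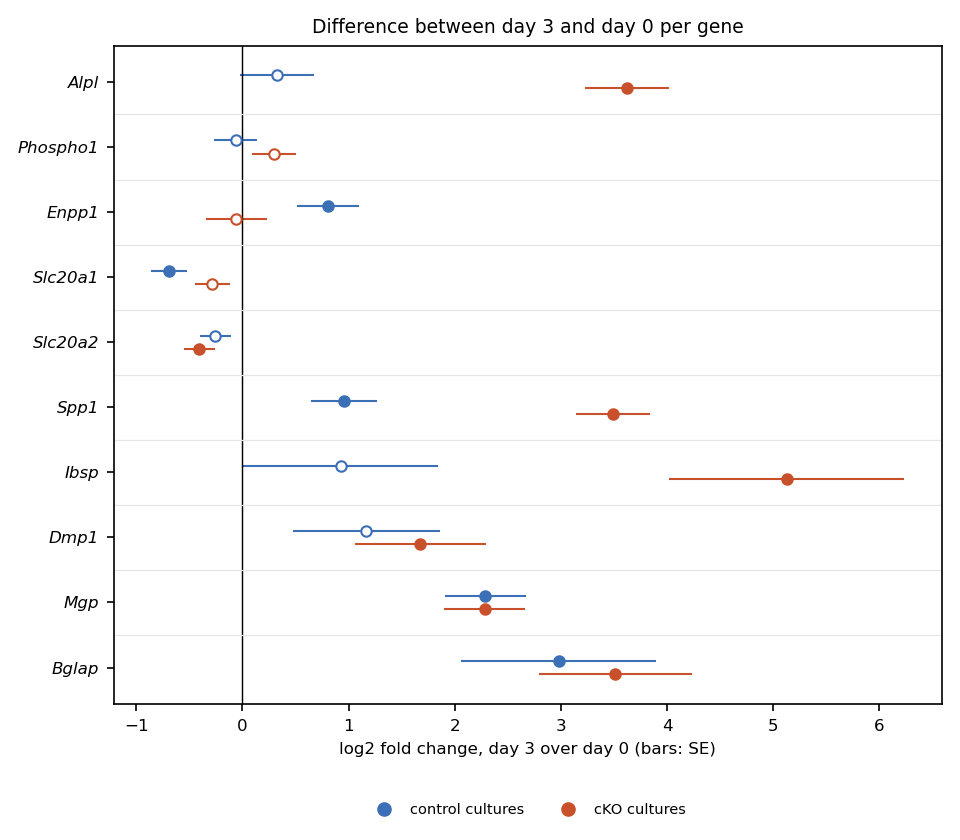
Difference between day 3 and day 0 of each gene as log2 fold change in control and in cKO cultures (points, with SE bars), with filled points for an adjusted p under 0.05. The points of the 2 genotypes lie together for Mgp (2.29 and 2.28) and far apart for Alpl (0.32 and 3.62), Spp1 (0.95 and 3.49) and Ibsp (0.93 and 5.13).

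Levels were compared between genes only per kilobase of exonic sequence in the cultures. Spp1 and Mgp had the highest means of the 10 in every culture group, at 83.7 ± 5.62 and 69.1 ± 5.79 CPM per kilobase (SD, n = 3) in controls at day 0. Slc20a1 (18.0), Phospho1 (15.5), Alpl (9.18), Ibsp (8.58), Slc20a2 (8.28) and Enpp1 (3.95) followed there, with Alpl, Ibsp and Slc20a2 overlapping their neighbours, and Dmp1 and Bglap were lowest at 0.129 and 0.109. In controls at day 3 Mgp (337.8 ± 77.6; SD, n = 4) stood first and overlapped Spp1 (162.3 ± 65.9; SD, n = 4). In cKO cultures at day 3 Spp1 led at 1853 ± 430 CPM per kilobase (SD, n = 4), without overlap with Mgp at 200.8 ± 96.7 (SD, n = 4). The range of Mgp there overlapped that of Ibsp. Ibsp (97.4 ± 58.8) and Alpl (82.9 ± 21.0) came next and overlapped each other, above Slc20a1 at 26.3 ± 7.23 (SD, n = 4 each).

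A list of 35 other genes of mineralization and phosphate handling gave the setting. At day 0, 6 of the 24 tested were higher and 15 lower in cKO cultures (edgeR), against 33% and 31.6% of all genes, with a median log2 fold change of -0.28. Bglap3, Fam20a (a pseudokinase partner of Fam20c; log2 1.27 ± 0.22, edgeR adjusted p = 7.49e-04) and Tnfrsf11b (osteoprotegerin; 1.18 ± 0.05, edgeR adjusted p = 9.53e-08) were the named genes that were higher. Smpd3 (neutral sphingomyelinase, needed for skeletal mineralization; -2.15 ± 0.17, edgeR adjusted p = 5.34e-06) was lower, with 369.7 ± 12.4 CPM in control and 83.5 ± 23.0 CPM in cKO (SD, n = 3). Vkorc1 (-1.15 ± 0.04) and Ggcx (-0.98 ± 0.04), the enzymes that recycle vitamin K and carboxylate Gla proteins such as Mgp and Bglap, were lower as well (edgeR adjusted p = 4.35e-08 and 9.88e-08).

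At day 3, 8 of 24 were higher and 9 lower, against 25.5% and 22.6% of all genes, with a median of -0.05. Fam20a (log2 2.74 ± 0.54; edgeR adjusted p = 0.00329), Bglap2 and Bglap3 were the named higher genes. Smpd3 was lower (-3.66 ± 0.74; edgeR adjusted p = 0.00393), with 751.7 ± 172.3 CPM in control and 59.0 ± 39.6 in cKO (SD, n = 4). Fam20c, the kinase that phosphorylates SIBLING proteins (-1.25 ± 0.14; edgeR adjusted p = 2.19e-04), and Nt5e, the ectoenzyme that makes adenosine from AMP (-1.12 ± 0.15; edgeR adjusted p = 5.72e-04), were lower too. In cartilage 0 of 20 were higher and 2 lower in the whole-number counts, against 3.15% and 3.04% of all genes: Smpd3 (-1.09 ± 0.19; edgeR adjusted p = 0.00174) and Ppa1, an inorganic pyrophosphatase (-0.94 ± 0.15; edgeR adjusted p = 0.00113). The estimated counts gave 1 higher, Bglap3, and 3 lower of 22, against 3.56% and 3.18%, with Nt5e (-0.66 ± 0.18; edgeR adjusted p = 0.0414) beside Smpd3 and Ppa1. Smpd3 was thus lower in cKO at both days and in cartilage, where the 2 tables count the same libraries. The cartilage groups overlapped in both, at 138.5 to 275.6 CPM in control and 63.7 to 172.3 CPM in cKO samples in the whole-number counts.

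From day 0 to day 3, 9 of 25 listed genes rose and 7 fell in control cultures, and 9 rose and 9 fell in cKO cultures. These stand against 28.1% and 28.8% of all genes in control and 32.4% and 29.8% in cKO cultures, and were near that background. Bglap2 (log2 4.27 ± 0.68 in control, 5.24 ± 0.62 in cKO), the Gla protein Gas6 (2.82 ± 0.17 and 4.73 ± 0.19) and the sodium-calcium exchanger Slc8a1 (2.49 ± 0.40 and 2.43 ± 0.38) rose in both (edgeR adjusted p from 3.75e-09 to 1.62e-04). At day 0 Bglap2 had only 4, 4 and 6 counts in control and 22, 6 and 3 in cKO cultures. The size of its rise is therefore uncertain, and it passed the filter of that fit mainly through the day 3 cultures. Ppa1 fell in both (-1.67 ± 0.14 and -1.44 ± 0.14; edgeR adjusted p = 7.74e-07 and 2.31e-06). Entpd5 (-1.10 ± 0.13) and the calcium pump Atp2b1 (-1.17 ± 0.10) were the other named genes that fell in control, and Nt5e (-1.78 ± 0.13) and Bglap3 in cKO cultures. The change differed between the genotypes for 9 of 25, against 16.8% of all genes, and was higher in cKO for 4, against 9.94%, among them Gas6 (1.91 ± 0.22; edgeR adjusted p = 2.26e-04), Entpd5 (1.39 ± 0.18; 4.4e-04) and Atp2b1 (0.54 ± 0.14; 0.0182). It was lower for 5, against 6.89%, among them Bglap3 (-1.39 ± 0.44; edgeR adjusted p = 0.0464), Fam20c (-1.08 ± 0.17; 0.0015) and Nt5e (-0.71 ± 0.18; 0.0172).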

How the data were processed

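Messenger RNA was measured in 14 chondrocyte cultures with a directional kit and in 8 cartilage samples with BRB-seq, a barcoded 3′ method with molecular identifiers, per the labels' protocols. For the cultures the authors deposited gene-level estimated counts, with 1 table for each day, and these were rounded to whole numbers here. For the cartilage they deposited whole-number counts, used as the main values, and estimated counts of the same libraries, given beside them. The fixed plan named the estimated table as the table of the selection rule, but that rule names the whole-number table. The submitters' processing notes name GRCm38 for the cultures and UMI-tools 1.1.1, Trim Galore 0.6.7, HISAT2 2.2.1, featureCounts 2.0.1 and DESeq2 1.34.0 for the cartilage. Whether counting in the cultures used strand is not given in the sources used here. Of the per-sample columns, 0 were left unused.

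Genes were filtered with filterByExpr (minimum count 10, minimum total 15), scaled by TMM and tested over all genes by quasi-likelihood in edgeR (4.0.16; R 4.3.3). Genotype was fitted within each day, and with sex as a covariate in cartilage. Changes between days and their difference were fitted over all 14 cultures in 4 groups. The threshold for a call was a Benjamini-Hochberg p under 0.05. CPM used TMM library sizes, with all cultures on 1 scale. Alternatives were RLE scaling, DESeq2 1.42.0, no filter, no sex covariate, other sets of samples in the fit, a replicate block and leaving out each sample. Fits were tested on simulated data. Gene identifiers matched the annotation for 34582 of 34866 and 23884 of 23911.

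The 10 genes, the list of 35 and the marker lists were chosen with earlier results of these data known. Besides the 10 genes, the text names Bglap2, Bglap3, Mepe and Dspp, and in each comparison up to 3 higher and 3 lower called genes of the list of 35 with the largest fold change and a mean log2 CPM of at least 1.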

Additional observations from a re-analysis of the deposited data

Results flagged for a closer look

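In groups of 4 samples, 9 values lay so far from the other 3 that the gap to the nearest, divided by the whole range, exceeded Dixon's critical value. With 55 groups examined, chance gives this in about 1 of 20. At day 3, cKO replicate 4 held 207 CPM of Slc20a1, against 119.3 to 133.8 in the other cKO cultures, and 71.2 CPM of Slc20a2, against 41.4 to 45.7. Control replicate 1 held 265 CPM of Mgp at day 3, against 435.4 to 467.9.

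In cartilage the cKO sample in question was replicate 2 each time. In the whole-number counts it held 206 CPM of Slc20a1, against 91.0 to 95.7, and 216 CPM of Ibsp, against 6.24 to 20.2. In the estimated counts of the same libraries it held 170 CPM of Slc20a1, 166 CPM of Ibsp, 765 CPM of Spp1 and 10.7 CPM of Phospho1.

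For 3 genes the genotype difference at day 3 differed from that at day 0 in the test of the difference itself (edgeR): Alpl by log2 3.3, Spp1 by 2.53 and Ibsp by 4.2. The calls of Alpl and Spp1 were kept in all 14 fits that left out 1 culture. That of Ibsp (edgeR adjusted p = 0.0466) was lost in 12 of the 14, and with the replicate block (edgeR adjusted p = 0.0679).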

How the results depend on the processing

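RLE scaling and DESeq2 changed no direction and no call of the 10 genes. DESeq2 called 282 genes higher and 154 lower in the whole-number cartilage counts, against 277 and 267 with edgeR. Without a filter on low counts, 1044 of 23911 genes were called in the whole-number cartilage counts and 1393 of 20241 in the estimated counts. Of the members tested with the filter, 4 of 7 and 5 of 8 were called. Spp1 and Ibsp then passed as lower in cKO in the whole-number counts (edgeR adjusted p = 6.60e-12 and 1.98e-08, against 0.187 and 0.326 with the filter). Their log2 differences hardly moved, at -1.25 and -1.16 against -1.23 and -1.13, and their groups overlapped through cKO replicate 2. The totals without the filter include genes with few counts, so they are no like background for these members. Without the sex covariate 0 of the 7 and 0 of the 8 tested members were called in the whole-number and the estimated cartilage counts. With the covariate 1 member was called in each, beside 6.19% and 6.74% of all genes. With all 14 cultures in 1 fit, 6260 of 14909 genes and 3 of the 9 tested members were called at day 0, with Slc20a2, Dmp1 and Mgp lost. With each genotype fitted alone, the control changes of Ibsp and Slc20a2 were called and the cKO change of Slc20a2 was lost. The cause was not tested.

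Leaving out each sample in turn gave 0 to 4 called members in each cartilage table, with 362 to 630 genes called in the whole-number counts and 465 to 781 in the estimated counts. For the change in control cultures it gave 3 to 6 called members and 7438 to 9780 genes. For the difference between the changes it gave 2 to 5 members and 1591 to 4051 genes, the highest without day 3 cKO replicate 4. With all samples, 544 of 8793 and 733 of 10872 genes were called in the 2 cartilage tables. In the cultures 8476 of 14909 were called for the control change and 2509 of 14909 for the difference between the changes. Uncalled differences near 0 changed sign when 1 sample was left out: those of Enpp1 ran from -0.11 to 0.0032 at day 0, from -0.21 to 2.90e-05 in whole-number and -0.14 to 0.0099 in estimated cartilage counts, and from -0.30 to 0.21 for the cKO change. The control change of Phospho1 ran from -0.22 to 0.069, and the difference between changes from -0.25 to 0.28 for Mgp and -0.42 to 1.09 for Bglap.

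Replicate numbers were not used to pair the samples in the main fits. Deviations of same-numbered cultures correlated at -0.0035, -0.027 and 0.245 at day 0 and all negatively at day 3. In the whole-number cartilage counts they correlated at 0.262, 0.084, -0.078 and 0.119. So few correlations cannot exclude a pairing. With the replicate block, Ibsp was called at day 0 (log2 -2.47, edgeR adjusted p = 0.0167) and was not at day 3 (2.28, 0.0645) or for the difference between changes (4.27, 0.0679). Slc20a1 was called for the cKO change (-0.42, 0.0129), and that of Enpp1 became 0.042. The depth of the cartilage counts left Phospho1, Dmp1 and Bglap untested in the whole-number table.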
